A study of Mus musculus with 4 samples.

Results

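The effect of 14 days of cold on the subcutaneous fat of aged mice was examined in nuclei of inguinal white adipose tissue (iWAT). The comparison set aged mice kept at 6 °C for 14 days (14D) against aged mice kept at thermoneutrality (TN, 30 °C). Its members were the nuclei with at least 300 genes from the aged TN and aged 14D hashed aliquots, which were 5253 of the 15277 such nuclei in the series. Aged TN replicates 1 and 2 gave 1202 and 802 of them, and aged 14D replicates 1 and 2 gave 1193 and 2056. In single-nucleus RNA sequencing, each RNA molecule is counted once in its nucleus by a random tag, the unique molecular identifier (UMI).

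The mice of both groups were male C57BL/6 mice, 57 weeks old, which had spent 3 weeks at 30 °C beforehand and lived alone in their cages for the last 2 weeks. Per the study's methods, wild-type mice came from 2 suppliers, and the fat was frozen after the lymph node had been cut out, so the nuclei were sorted from frozen tissue and not from living cells. Each group held 2 mice, 1 in each of the 2 multiplexed pools, and the nuclei of a mouse were split over 2 hashed aliquots that were summed here. Each group had 2 mice, and the p-values below rest on the spread between mice of a group, estimated over all 12 mice of the series. No barcode was shared by aliquots of the same pool (0 in both pools).

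White adipocytes store triglyceride in a single droplet and release fatty acids when noradrenaline acts on them. In the cold, some adipocytes of the inguinal depot take on a beige state: they gain mitochondria and express uncoupling protein 1 (Ucp1), which lets protons leak back across the inner mitochondrial membrane so that fuel is burned for heat. Such adipocytes both oxidise fatty acids and make new ones from glucose, a process called de novo lipogenesis (DNL). The questions here were which genes and pathways of adipocyte nuclei differed after 14 days of cold at this age, and whether nuclei of other cells differed too.

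After removal of doublets and of nuclei with liver genes, 5082 nuclei were kept, with 1168, 790, 1147 and 1977 in aged TN 1, aged TN 2, aged 14D 1 and aged 14D 2. These held 1107747 to 4134507 UMIs per mouse. The median nucleus held 1082.5 and 1121.5 UMIs in the TN mice against 1866 and 1651 in the 14D mice, so depth differed along with temperature. Of these 4 mice, aged 14D 2 alone had nuclei with at least 2 of 11 liver genes (24), as did 4 of the other mice of its pool. Clusters were named by markers: all 5 adipocyte clusters had 9 of the 9 adipocyte markers (among them Adipoq, Plin1 and Lipe) at more than 2-fold the level of the other clusters. Where nuclei of other types could enter the adipocyte class, their markers stayed low: the 8 fibroblast markers summed to 256 and 94.9 counts per 1e+06 UMIs (CPM) in TN adipocyte nuclei and to 125 and 107 CPM at 14D. The 8 immune markers summed to between 4.72 and 56.1 CPM over the 4 mice. The 11 liver genes summed to 0 and 66.1 CPM at TN and to 0 and 17.7 CPM at 14D, with Alb, Apoa1 and Apob at 0 in all 4 mice.

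The share of adipocytes among nuclei did not separate the groups. It was 47.3% and 47.2% in the aged TN mice, 58.1% in aged 14D 1 and 22.4% in aged 14D 2. Exact binomial 95% intervals, which cover counting error only, were 44.4 to 50.3%, 43.7 to 50.8%, 55.1 to 60.9% and 20.5 to 24.3%. The 14D mice lay on either side of the TN mice, at 40.2% ± 25.2 (SD, n = 2) against 47.3% ± 0.0924 (SD, n = 2). The difference of -7.07 percentage points had p = 1 in an exact permutation test, where the smallest p that the 6 splits of 4 mice allow is 0.333. Without aged 14D 2 the difference was 10.8 percentage points, so its direction rested on that mouse. Fibroblast nuclei made up 41.0% and 34.6% at TN and 31.0% and 54.0% at 14D, immune nuclei 9.16% and 11.1% against 4.88% and 13.9%, and endothelial nuclei 2.14% and 4.81% against 4.97% and 7.74%. In aged 14D 2 the share of fibroblasts was thus the highest and that of adipocytes the lowest of the 4 mice.

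In adipocyte nuclei, 14 days of cold changed 285 of 10326 genes tested (2.76%), with 144 higher (1.39%) and 141 lower (1.37%) at 14D. Rising genes with the smallest adjusted p included genes of beige and brown fat, such as the acyl-CoA thioesterase Acot11 and glycerol kinase Gk, and those that fell included the scaffold gene Ahnak and the clathrin adaptor Hip1. The test was edgeR's quasi-likelihood F-test on UMIs summed per mouse with Benjamini-Hochberg adjustment over all genes, in a fit of all 12 mice of the series. The 4 mice differed in depth in this class as well, with median adipocyte nuclei of 1551 and 1570 UMIs at TN and 2868 and 3461.5 UMIs at 14D. With the sums of every mouse thinned to the same total, 174 genes passed. Of the 285 genes, 284 had no overlap between the CPM of TN and 14D mice, as did 49.2% of all genes tested. Of the 251 genes with UMIs in both groups, 216 differed by more than 2-fold. A further 33 that were higher had 0 UMIs at TN, of which 19 had a lower bound above 1-fold and 5 above 2-fold. The number of calls rested on each of the 4 mice: it was 56 without aged TN 1, 32 without aged TN 2, 4 without aged 14D 1 (Acot11, Sept9, Gk and Adcy10) and 46 without aged 14D 2. Every other gene named below as changed thus lost its call at least without aged 14D 1. In each of these 4 fits, the 285 genes kept their direction.

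**Figure D1:**
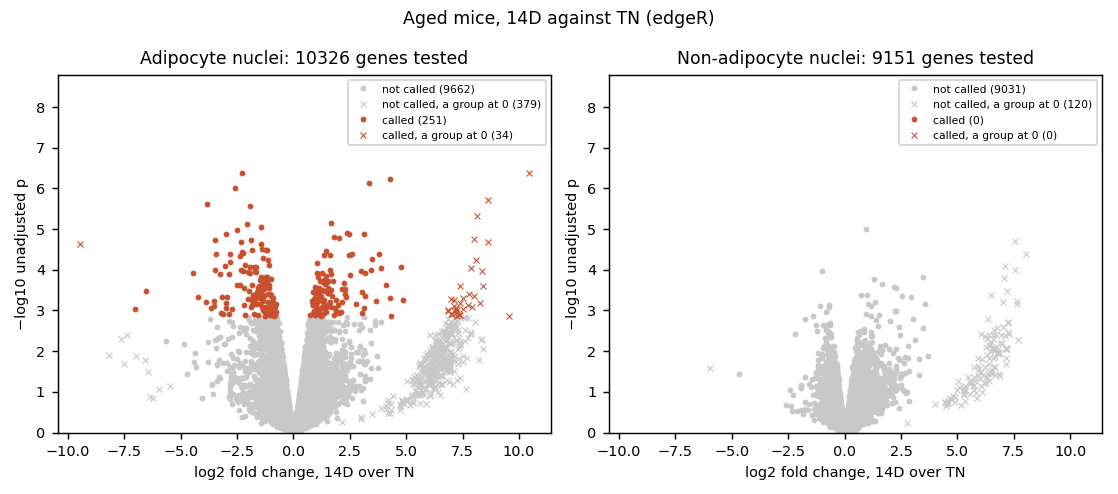
Each point is a gene in adipocyte nuclei (left, 10326 genes) or non-adipocyte nuclei (right, 9151 genes), with the log2 fold change of aged 14D over aged TN on the x axis, the unadjusted edgeR p-value (-log10) on the y axis, genes that passed in red, and crosses for genes at 0 in a group, whose position depends on the prior count. The 285 genes that passed lie on both sides in adipocyte nuclei, and 0 genes are red in non-adipocyte nuclei.

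The adipocyte nuclei of the temperatures fell in different clusters, which bears on every value given for the class as a whole. At TN, 55.0% and 56.0% of adipocyte nuclei were in a cluster led by the imprinted proteolipid gene Nnat, and 43.2% and 42.9% in one led by Nnat, the thyrotropin receptor Tshr and the natriuretic peptide clearance receptor Npr3. At 14D, these clusters held 12.8% and 11.3%, and 5.86% and 14.0%. A cluster led by Dgat2 and Nrg4, with Acacb among its leading genes, held 72.2% and 67.9% of adipocyte nuclei at 14D and 1.81% and 1.07% at TN. A further cluster led by the nuclear receptors Esrrg and Ppara, with Acacb and the beige gene Cidea among its leading genes, held 55 nuclei (8.26%) of aged 14D 1 and 28 (6.33%) of aged 14D 2. It held 0 of 553 and 0 of 373 nuclei of the TN mice, which allows shares of up to 0.542% and 0.804%. A cluster led by Dgat2, Pcx and Nrg4, with the lipogenic genes Thrsp and Me1 next, held 0.901% and 0.452% at 14D. Since the clusters were built from the same counts, these shares are a description with no test.

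**Figure D2:**
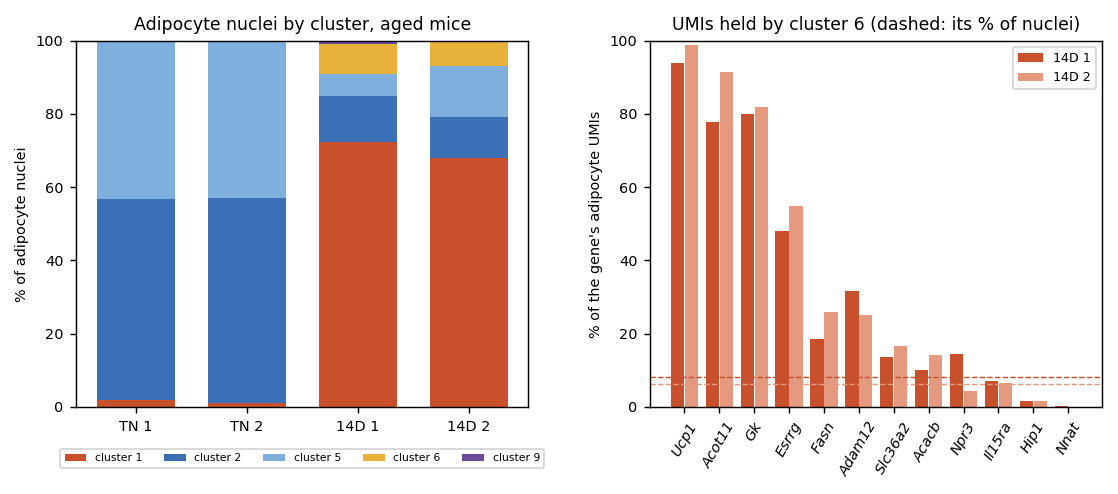
Left, the percent of adipocyte nuclei in each adipocyte cluster in the 4 aged mice; right, the percent of a gene's adipocyte UMIs that the cluster led by Esrrg held at 14D, with that cluster's percent of nuclei as dashed lines. The clusters that hold most TN nuclei (55.0% and 43.2% in aged TN 1) hold few 14D nuclei, and 93.8% and 98.9% of Ucp1 UMIs lie in a cluster of 8.26% and 6.33% of nuclei.

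The thermogenic list had the most calls of the 21 lists in adipocyte nuclei. Of 30 listed members, 26 were tested, 12 rose and 0 fell, and 14 did not pass, beside 1.39% of all genes that rose. Those that rose were Acot11, Cidea, Elovl3, Esrrg, Gk, Pank1, Plin5, Ppara, Ppargc1b, Slc27a2, Slc36a2 and Ucp1. Elovl3 and Slc27a2 had 0 UMIs at TN and 37 and 47 UMIs at 14D, which sets their lower bounds at 0.780-fold and 0.991-fold, so neither was bounded above 1. For 9 tested members both TN mice were at 0 and for 1 all 4 mice were, and with the 9 set to their lower bounds the median log2 fold change of the list was 0.72, beside 0.03 over all genes treated in the same way. The 16 members with UMIs in both groups all had positive log2 fold changes, with a median of 1.03 beside 0.05 over all such genes, and 7 of the 16 rose. Here too single mice mattered: 5 members rose without aged TN 1, 5 without aged TN 2, 2 without aged 14D 1 and 6 without aged 14D 2.

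Ucp1 (chr8:83290352-83298452, GRCm38, + strand) is the defining gene of thermogenic adipocytes. It had 0 UMIs in both aged TN mice and 113 and 87 UMIs in the aged 14D mice, or 51.7 and 53.3 CPM. Ucp1 UMIs were thus listed in the 14D mice alone. Up to 5 UMIs of a gene can be missing from an aliquot that lacks it, or 20 over the TN mice, which sets a lower bound of 4.22-fold on the rise (adjusted p = 0.0488, edgeR). Leaving out any 1 of the 4 mice raised the adjusted p of Ucp1 to between 0.115 and 0.231. The call was also lost with all nuclei of at least 300 genes (adjusted p = 0.0548, edgeR), with classes by markers per nucleus (0.0528), with the first aliquots (0.0841) and with no replicate block (0.0663), and Ucp1 passed in the other 6 of 14 alternatives. In the aged mice with 3 days of cold (3D), Ucp1 was also at 0 in both mice. Of the Ucp1 UMIs of adipocytes, 93.8% and 98.9% lay in the cluster led by Esrrg. After thinning every nucleus to 800 UMIs, which left out 60, 35, 39 and 15 shallower adipocyte nuclei of aged TN 1, aged TN 2, aged 14D 1 and aged 14D 2, Ucp1 was seen in 3.67% and 2.34% of 14D adipocyte nuclei and in 0% of TN nuclei, where 0 of 493 and 0 of 338, with up to 10 UMIs of the gene unlisted in each mouse, allow up to 2.03% and 2.96%. The thinned share in aged 14D 2 lies below the second limit, so it is not separated from it at this depth. Unthinned, these shares were 5.71% and 4.98% at 14D and 0% at TN. Fibroblast nuclei, which should lack the gene, had 0 in each mouse, which allows up to 4.13% and 6.33% of thinned nuclei at TN and 1.11% and 0.313% at 14D, with medians of 806 and 862 UMIs at TN and 1188.5 and 1492 UMIs at 14D.

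Other thermogenic genes went from little to much RNA without overlap. Acot11 (chr4:106744555-106804998, - strand), an acyl-CoA thioesterase of brown fat, had 0 CPM in both TN mice and 105 and 94.4 CPM at 14D. It was at least 8.10-fold higher (adjusted p = 0.00186, edgeR) and passed without any 1 mouse. Gk (chrX:85701937-85776819, - strand), which makes glycerol 3-phosphate from glycerol, had 19.6 and 10.0 CPM at TN and 162 and 139 CPM at 14D, a log2 fold change of 3.34 ± 0.33 (SE, adjusted p = 0.00186, edgeR). In aged 3D mice, Gk lay at 30.7 and 26.5 CPM, nearer to the TN than to the 14D mice. Esrrg (chr1:187608791-188214885, + strand), a nuclear receptor that drives oxidative genes, had 46.0 and 87.3 CPM at TN and 349 and 377 CPM at 14D. The log2 fold change of Esrrg was 2.47 ± 0.33 (adjusted p = 0.00814, edgeR). Cidea, a lipid droplet protein of brown fat, had 9.78 and 0 CPM at TN and 156 and 153 CPM at 14D, and 4.76 ± 0.78 as its log2 fold change (adjusted p = 0.0167, edgeR). Both aliquots of aged TN 2 lacked Cidea, and up to 5 UMIs can be missing from each, so this fold may be too high. Slc36a2, an amino acid transporter on the surface of brown and beige adipocytes, rose from 150 and 116 to 539 and 390 CPM (log2 fold change 1.80 ± 0.24, adjusted p = 0.00862, edgeR). The perilipin Plin5, which ties lipid droplets to mitochondria, had 0 CPM at TN and 21.5 and 16.5 CPM at 14D and was at least 1.56-fold higher (adjusted p = 0.00862, edgeR).

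Among the coactivators and regulators, Ppargc1b rose from 291 and 207 to 600 and 481 CPM (log2 fold change 1.12 ± 0.26, adjusted p = 0.047, edgeR). Its relative Ppargc1a, a cold-responsive driver of mitochondrial genes, had 94.9 and 80.1 CPM at TN and 117 and 136 CPM at 14D (log2 fold change 0.49 ± 0.30, adjusted p = 0.44, edgeR). Prdm16, a regulator of brown and beige identity, had 263 and 402 CPM at TN and overlapping values of 612 and 352 CPM at 14D (adjusted p = 0.492, edgeR). Dio2, which activates thyroid hormone, had UMIs in aged 14D 1 alone, at 9.15 CPM.

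**Figure D3:**
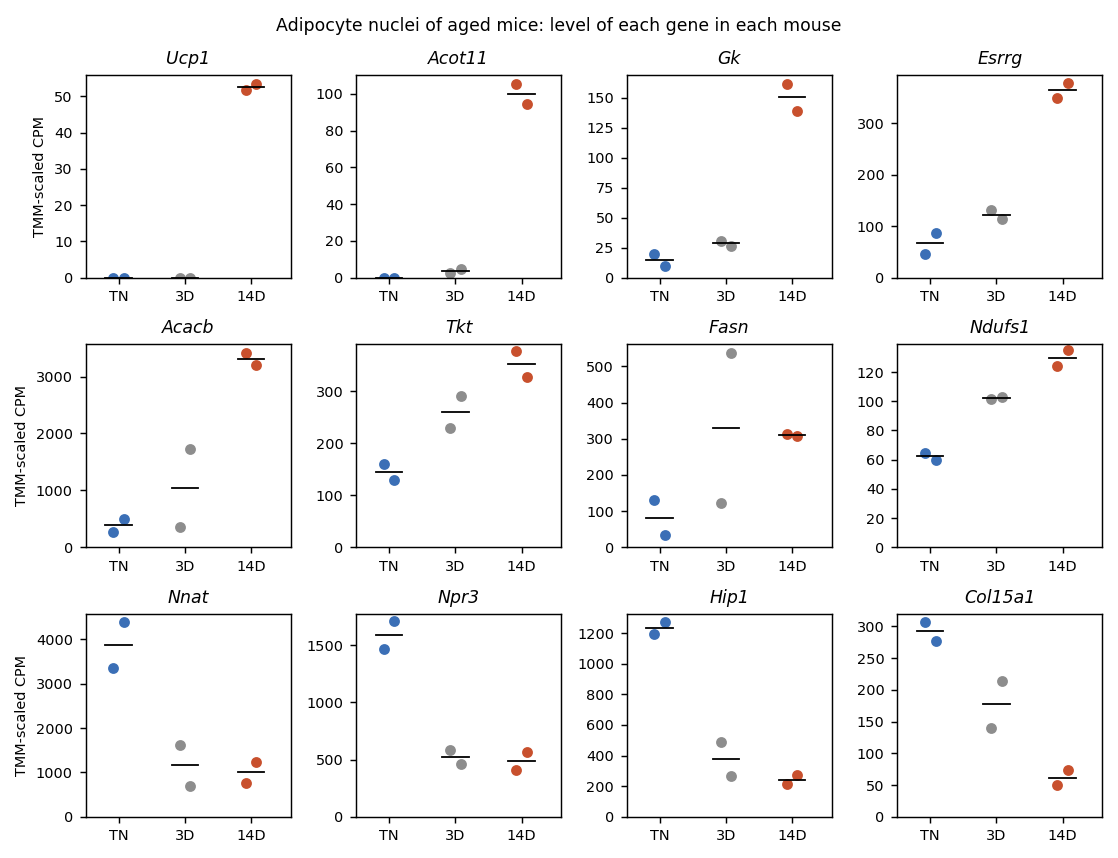
CPM (TMM-scaled) of named genes in adipocyte nuclei of each aged mouse at TN, 3D and 14D, with 2 points and their mean as a line for each group. Ucp1 lies at 0 in the TN and 3D mice and at 51.7 and 53.3 CPM at 14D, and Nnat falls from 3344 and 4397 CPM at TN to 767 and 1232 CPM at 14D.

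RNA of several beige genes lay mainly in the few nuclei of the cluster led by Esrrg. Beside Ucp1, that cluster held 77.8% and 91.6% of Acot11 UMIs and 79.9% and 81.9% of Gk UMIs in the 2 aged 14D mice. Esrrg itself had 48.0% and 54.9% of its UMIs there, Slc36a2 13.7% and 16.6% and Acacb 9.99% and 14.3%. The clusters were built on such genes, so these percents describe where the RNA lay. When all nuclei with a UMI of Ucp1, Cidea, Cox8b or Elovl3 were left out of every mouse, 105 genes passed, all of them among the 285, with 33 higher and 72 lower. In that fit, 17 thermogenic members were tested and 2 rose, with a list median of 0.38 beside 0.03 over all genes. This choice removes nuclei by genes of the list itself, so the list's own value in it is a description. Of the named genes that rose, Gk, Esrrg, Plin5, Rnf152, Sept9, Gpd2, Pkm, Slc16a1, Tkt, Ogdh, Atp5a1, Hadhb, Etfdh, Slc25a20, Adra1a, Rgs2, Cd274 and Nrp2 did not pass in that fit, with Gk at a log2 fold change of 1.01 (adjusted p = 0.316, edgeR) and Esrrg at 1.10 (adjusted p = 0.129, edgeR). Other genes lost the call with a fold nearer to that over all adipocyte nuclei: Slc25a20 stood at 1.88 (2.30 over all), Cd274 at 2.04 (2.17) and Atp5a1 at 0.88 (1.11). Acot11, Slc36a2, Acacb, Elovl5, Fads1, Adam12, Il15ra and Echdc1 passed in it.

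Genes of DNL were higher at 14D in most of their members, but few passed. Of 22 members, 20 were tested, 19 of them had positive log2 fold changes, and 4 rose, beside 1.39% of all genes: Acacb, Elovl5, Fads1 and Tkt. The median log2 fold change of the list was 1.90 beside 0.07 over all genes. Without any 1 of the 4 mice the calls of these members were lost, with list medians from 1.55 to 2.31. With the 4 aged mice alone 9 of 20 rose, in a fit that called 353 genes in either direction, more than the main fit. Acacb (chr5:114146535-114250761, + strand), an acetyl-CoA carboxylase whose product also restrains the entry of fatty acids into mitochondria, had 265 and 499 CPM at TN and 3415 and 3205 CPM at 14D. Its log2 fold change was 3.19 ± 0.55 (adjusted p = 0.0176, edgeR). Without each mouse in turn the log2 fold change of Acacb lay between 2.81 and 3.48, and the call was lost each time. After thinning to 800 UMIs, 20.7% and 25.4% of TN adipocyte nuclei held an Acacb UMI against 84.2% and 74.5% at 14D, and 0% and 0% against 0.738% and 0.417% of fibroblast nuclei did. Unthinned, the shares in adipocytes were 34.9% and 46.1% at TN and 95.9% and 87.8% at 14D. The level and the share of nuclei thus both separated the temperatures in each pool.

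The other steps of fatty acid synthesis varied between mice. Fasn, the fatty acid synthase, had 130 and 32.9 CPM at TN and 314 and 309 CPM at 14D, with no overlap but a log2 fold change of 1.89 ± 0.66 (adjusted p = 0.156, edgeR). Acly, which splits citrate to acetyl-CoA, had 56.7 and 0 CPM at TN and 97.0 and 270 CPM at 14D (log2 fold change 2.29 ± 0.98, adjusted p = 0.241, edgeR). In both genes a TN mouse lay far below the other, and neither passed. Scd1, the stearoyl-CoA desaturase, had 332 and 432 against 1083 and 734 CPM, without overlap (adjusted p = 0.156, edgeR). Fads1, a desaturase of polyunsaturated fatty acids, rose from 1.96 and 2.86 to 19.2 and 36.2 CPM (adjusted p = 0.0128, edgeR). Fads1 was unlisted in 2 TN aliquots, where up to 5 UMIs each can be missing. The transketolase Tkt, of the pentose phosphate pathway that supplies reducing power, rose from 160 and 130 to 379 and 328 CPM (log2 fold change 1.28 ± 0.22, adjusted p = 0.0176, edgeR). The elongase Elovl5 rose from 24.5 and 31.5 to 73.6 and 90.1 CPM (log2 fold change 1.55 ± 0.28, adjusted p = 0.0225, edgeR). With no replicate block, Fads1 (adjusted p = 0.086, edgeR) and Elovl5 (adjusted p = 0.0541, edgeR) lost their calls.

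Promoters were searched because several thermogenic and lipogenic genes passed together. Of the 16 members of the thermogenic, DNL and circadian clock lists that passed, 11 had 17 RefSeq promoter windows of GRCm38.p6 between them (4 genes had more than 1), from 250 bases before to 50 bases after a gene start. Searched on both strands, 3 of the 17 windows held an E-box (CACGTG), 1 a cAMP response element (TGACGTCA) and 0 a D-box (TTATGTAA). Of all 32851 windows, 7.15% held the E-box, 1.79% the cAMP response element and 0.938% the D-box. The windows with a match are printed 5′ to 3′ on the gene's strand with the motif in capitals, to show the sequence upstream of genes that rose. They are chr4:106799782-106800081 (- strand) of Acot11 with the E-box at -154, chrX:85776770-85777069 (- strand) of Gk with the E-box at -58 and chr9:77917115-77917414 (+ strand) of Elovl5 with the E-box at -161 and the cAMP response element at 4. Positions count from the start that a window is built on, which for this Acot11 window lies inside the gene. The window at the outer start of Acot11 (chr4:106804958-106805257) held 0 of the motifs. A match is a description of the letters.
Acot11: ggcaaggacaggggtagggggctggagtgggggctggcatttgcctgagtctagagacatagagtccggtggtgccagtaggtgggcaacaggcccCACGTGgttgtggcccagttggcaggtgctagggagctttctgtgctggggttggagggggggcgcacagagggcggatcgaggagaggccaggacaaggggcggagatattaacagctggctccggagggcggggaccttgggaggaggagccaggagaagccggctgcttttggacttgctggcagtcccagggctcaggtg
Gk: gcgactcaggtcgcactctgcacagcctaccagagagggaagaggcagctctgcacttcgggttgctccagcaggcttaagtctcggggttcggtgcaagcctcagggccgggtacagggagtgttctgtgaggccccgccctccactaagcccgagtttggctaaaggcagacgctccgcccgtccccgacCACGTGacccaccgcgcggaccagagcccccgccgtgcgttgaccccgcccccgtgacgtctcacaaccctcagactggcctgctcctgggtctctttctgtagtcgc
Elovl5: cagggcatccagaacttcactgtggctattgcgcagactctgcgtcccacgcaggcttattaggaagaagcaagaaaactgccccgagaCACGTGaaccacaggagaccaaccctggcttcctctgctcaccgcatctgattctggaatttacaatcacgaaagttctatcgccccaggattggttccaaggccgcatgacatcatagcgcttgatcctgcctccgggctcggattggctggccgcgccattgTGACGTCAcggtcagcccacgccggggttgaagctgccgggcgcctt

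Most mitochondrial oxidation genes had positive log2 fold changes and did not pass. Of the 40 genes of the tricarboxylic acid cycle and oxidative phosphorylation, all 40 were tested, 39 had positive log2 fold changes with a median of 0.70 beside 0.07 over all genes, and 4 rose, among them Atp5a1, Ndufs1 and Ogdh, beside 1.39% of all genes. Ndufs1, a subunit of respiratory complex I, went from 64.6 and 60.1 to 124 and 135 CPM (log2 fold change 1.05 ± 0.17, adjusted p = 0.0148, edgeR). Its levels did not overlap between the groups. Ogdh, a subunit of the 2-oxoglutarate dehydrogenase complex, rose from 136 and 156 to 309 and 287 CPM, and Atp5a1, a subunit of ATP synthase, from 74.4 and 60.1 to 151 and 142 CPM. Of 31 genes of fatty acid uptake and oxidation, 30 were tested, 26 had positive values with a median of 0.87, and 4 rose (Acaa1b, Etfdh, Hadhb and Slc25a20), beside 1.39% of all genes. Etfdh passed in 6 of 15 alternatives and not with all nuclei of at least 300 genes (adjusted p = 0.051, edgeR). Slc25a20, which carries acylcarnitines into mitochondria, rose from 32.3 and 45.8 to 222 and 154 CPM (log2 fold change 2.30 ± 0.45, adjusted p = 0.0295, edgeR). Between 0 and 1 member of each of these lists passed when any 1 mouse was left out.

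**Figure D4:**
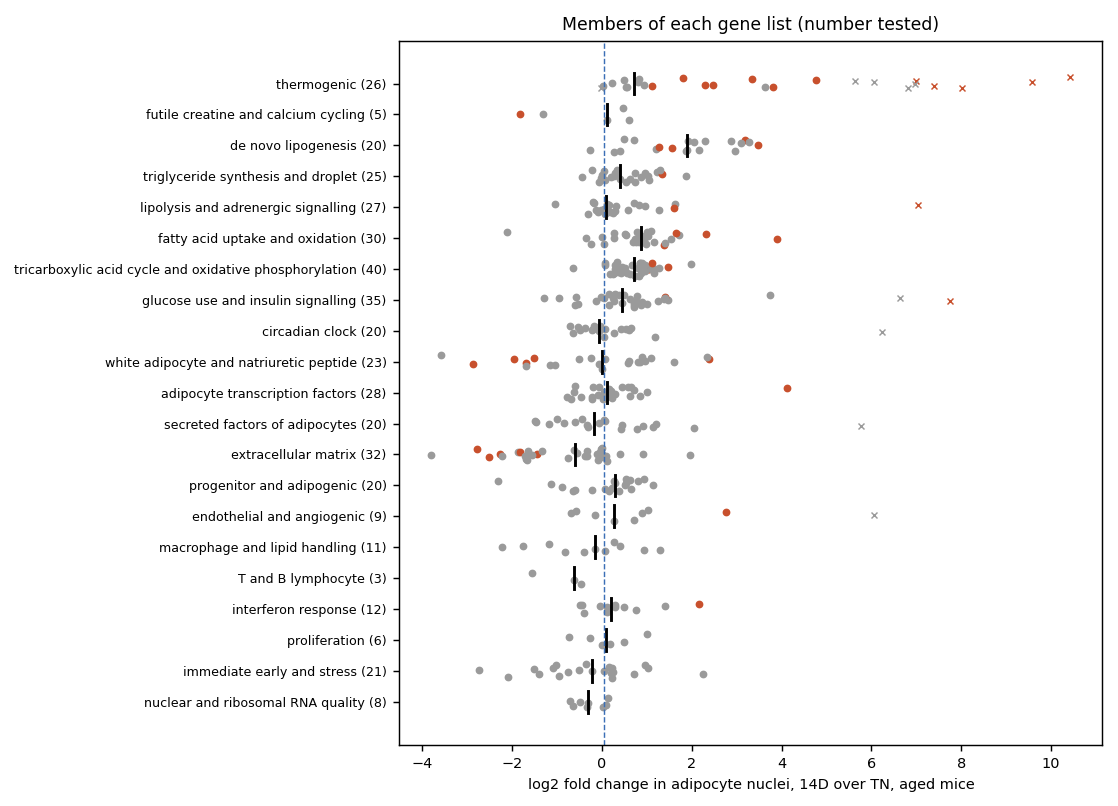
Log2 fold change of aged 14D over aged TN in adipocyte nuclei for each tested member of the gene lists, with genes that passed in red, crosses for genes with a group at 0 whose position depends on the prior count, black bars for list medians with such genes at their bound, and a dashed line for the median of all genes (0.03). DNL members lie at a median of 1.90 and extracellular matrix members at -0.59.

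Genes of fuel supply that rose were Pkm, Slc16a1 and Gpd2. Of 35 tested genes of glucose use and insulin signalling, Pkm and Slc16a1 rose, beside 1.39% of all genes, and the median was 0.61, or 0.43 with genes at 0 set to their bound. Slc16a1, a lactate and pyruvate transporter, had 0 CPM at TN and 15.1 and 17.8 CPM at 14D and was at least 1.31-fold higher (adjusted p = 0.0371, edgeR). It passed in 5 of the 11 alternatives that kept all 4 mice, and not with these aged mice alone or with either aliquot. Pyruvate kinase Pkm rose from 15.7 and 24.3 to 47.1 and 56.4 CPM (adjusted p = 0.0393, edgeR). Of 25 tested genes of triglyceride synthesis and the lipid droplet, 1 rose, beside 1.39% of all genes, and the list median was 0.41. This was Gpd2, the mitochondrial glycerol 3-phosphate dehydrogenase, which went from 76.3 and 75.8 to 203 and 181 CPM (log2 fold change 1.34 ± 0.20, adjusted p = 0.011, edgeR). Dgat2, which makes the last step to triglyceride, had overlapping levels of 1278 and 485 CPM at TN and 1368 and 745 CPM at 14D.

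Of 27 tested genes of lipolysis and adrenergic signalling, 2 rose, beside 1.39% of all genes, with a list median of 0.11. These were the alpha-1A adrenergic receptor Adra1a, from 143 and 70.1 to 368 and 277 CPM (log2 fold change 1.61 ± 0.35, adjusted p = 0.0377, edgeR), and Rgs2, a brake on G protein signalling, with 0 CPM at TN and 6.86 and 14.1 CPM at 14D (adjusted p = 0.0474, edgeR). With 38 UMIs at 14D against up to 20 unlisted at TN, Rgs2 had a lower bound of 0.802-fold and was not bounded above 1. Without the replicate block neither passed (adjusted p = 0.0617 for both, edgeR). The beta-3 receptor Adrb3, through which noradrenaline acts on mouse adipocytes, had 579 and 708 CPM at TN and 609 and 737 CPM at 14D (log2 fold change 0.06 ± 0.25, adjusted p = 0.934, edgeR). Its levels overlapped, as did those of the lipase Lipe, at 1375 and 1271 CPM against 1589 and 1184 CPM. The lipase Pnpla2, which makes the first cut in triglyceride, had 168 and 192 CPM at TN and 215 and 212 CPM at 14D (adjusted p = 0.644, edgeR).

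Genes that fell included markers of the TN adipocytes and matrix genes. Of 23 tested white adipocyte and natriuretic peptide genes, 4 fell (Nnat, Npr3, Synpo2 and Tshr), 1 rose (Adam12) and the median was 0.00, where 1.37% of all genes fell and 1.39% rose. Npr3 (chr15:11839896-11907287, - strand), the receptor that clears natriuretic peptides, had 1468 and 1710 CPM at TN and 407 and 570 CPM at 14D. It fell by 1.69 ± 0.28 on the log2 scale (adjusted p = 0.0175, edgeR), and after 3 days of cold it was at 587 and 463 CPM. At 800 UMIs per nucleus, 58.8% and 54.1% of TN and 19.6% and 27.9% of 14D adipocyte nuclei held an Npr3 UMI. Nnat (chr2:157560078-157562522, + strand), an imprinted gene of the endoplasmic reticulum membrane, had 3344 and 4397 CPM at TN and 767 and 1232 CPM at 14D and fell by 1.95 ± 0.38 on the log2 scale (adjusted p = 0.0273, edgeR). Tshr fell from 1239 and 1106 to 300 and 528 CPM but had 1594 and 1199 CPM at 3D, the lowest of which lay within the TN range. Over the 4 fits that each left out 1 mouse, Npr3 passed in 2, Tshr in 1 and Nnat in 0. The adipokine gene Lep had 386 and 255 CPM at TN and 139 and 151 CPM at 14D, without overlap but with an adjusted p of 0.216 (edgeR).

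Of 32 tested extracellular matrix genes, 25 had negative log2 fold changes with a median of -0.59 beside 0.07 over all genes, 5 fell, beside 1.37% of all genes, and 0 rose. Col15a1, a collagen of basement membrane zones, fell from 307 and 278 to 49.9 and 73.5 CPM (log2 fold change -2.28 ± 0.34, adjusted p = 0.011, edgeR). Col5a1 fell from 77.3 and 100 to 19.2 and 31.2 CPM and Col5a3 from 133 and 143 to 51.7 and 50.2 CPM, both of them chains of the fibril-regulating collagen V. Timp3, an inhibitor of metalloproteinases, had 108 and 24.3 CPM at TN and 13.3 and 4.90 CPM at 14D, and Adamts5, a proteoglycan-cleaving protease, fell from 697 and 441 to 62.7 and 134 CPM. Timp3 lost its call with no replicate block (adjusted p = 0.132, edgeR), and also with all nuclei of at least 300 genes and with the first aliquots. The number of matrix genes that fell was 1 without aged TN 1, 2 without aged TN 2, 0 without aged 14D 1 and 3 without aged 14D 2. The summed fibroblast markers in adipocyte nuclei stood at 256 CPM in aged TN 1 against 94.9 to 125 CPM in the other 3 mice, and their part in the result was not tested.

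Among the 12 falling genes with the smallest adjusted p, Mycbp2, Hip1 and Ahnak had the highest levels at TN. Mycbp2, a ubiquitin ligase, had 2316 and 2546 CPM at TN and 522 and 635 CPM at 14D and fell by 2.07 ± 0.26 on the log2 scale (adjusted p = 0.00697, edgeR). Hip1 had 1192 and 1275 CPM at TN and 215 and 272 CPM at 14D, and Ahnak 930 and 943 against 255 and 241 CPM. In each of these 3 genes the 14D mice lay far below the TN mice. Xkr4, of a family of membrane proteins that move phospholipids between leaflets, fell from 227 and 196 to 40.3 and 48.4 CPM (log2 fold change -2.26 ± 0.21, adjusted p = 0.00186, edgeR). Nkd1, which restrains Wnt signalling, fell from 54.8 and 73.0 to 4.12 and 4.90 CPM (adjusted p = 0.00345, edgeR), and Flna, which cross-links actin, from 128 and 155 to 9.15 and 16.5 CPM (adjusted p = 0.00862, edgeR). The complement regulator Cd59a, the complement protease C1s1, the growth factor Pdgfd, the TEAD cofactor Vgll3, the deubiquitinase Usp35 and the microtubule-associated Nav1 made up the rest, with log2 fold changes from -2.50 for Vgll3 to -1.22 for Nav1. The calcium channel Ryr2 of the futile cycling list also fell, from 140 and 286 to 61.3 and 54.5 CPM, the 1 of 5 tested members that did, and 0 rose, where 1.37% of all genes fell and 1.39% rose.

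Among the 12 rising genes with the smallest adjusted p, several were no thermogenic members. The septin gene Sept9 rose from 3.91 and 2.86 to 72.7 and 59.4 CPM (log2 fold change 4.30 ± 0.41, adjusted p = 0.00186, edgeR). Without the nuclei with a UMI of Ucp1, Cidea, Cox8b or Elovl3, the log2 fold change of Sept9 was 0.16 (adjusted p = 0.967, edgeR). Adcy10, the bicarbonate-sensitive adenylyl cyclase, had 0 CPM at TN and 27.4 and 33.1 CPM at 14D and was at least 2.40-fold higher (adjusted p = 0.00326, edgeR). Il15ra, the high-affinity receptor chain of interleukin 15, rose from 138 and 162 to 499 and 444 CPM (log2 fold change 1.66 ± 0.21, adjusted p = 0.00697, edgeR). The metalloprotease Adam12 had 81.2 and 175 CPM at TN and 617 and 640 CPM at 14D, and 401 and 649 CPM at 3D. At 800 UMIs per nucleus, 34.1% and 28.6% of 14D adipocyte nuclei held an Adam12 UMI, close to the 26.4 to 32.2% of fibroblast nuclei of the 4 mice, while 5.68% and 10.7% of TN adipocyte nuclei did. Echdc1, which breaks down ethylmalonyl-CoA, rose from 80.2 and 87.3 to 321 and 352 CPM (log2 fold change 2.00 ± 0.27, adjusted p = 0.00862, edgeR). The tetraspanin Tspan15 was at least 1.71-fold higher, and Rnf152, a lysosomal ubiquitin ligase, rose from 4.89 and 5.72 to 49.9 and 38.6 CPM. Rnf152 was unlisted in 2 TN aliquots and passed in 7 of the 11 alternatives that kept all 4 mice.

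Other lists had 0 or 1 call in adipocyte nuclei. None of 20 tested clock genes passed (0), with a median of -0.06, and Arntl, a core activator of the clock, had 4.89 and 4.29 CPM at TN and 5.95 and 9.19 CPM at 14D (adjusted p = 0.574, edgeR). In the aged 3D mice Arntl stood at 62.1 and 74.0 CPM, above all TN and 14D mice of that age. Of 28 tested adipocyte transcription factors, Irf4, which binds promoters of thermogenic genes, was the 1 that rose, beside 1.39% of all genes, from 0 and 2.86 to 26.5 and 15.9 CPM (adjusted p = 0.0244, edgeR), and the median was 0.11. Irf4 was unlisted in 2 TN aliquots, where up to 5 UMIs each can be missing, so its fold may be too high. It passed in 7 of the 11 alternatives that kept all 4 mice. None of 20 tested secreted factors (0), 20 progenitor genes (0), 11 macrophage genes (0), 3 lymphocyte genes (0), 6 proliferation genes (0) or 21 immediate early genes (0) passed. Of 12 tested interferon genes Cd274 rose and of 9 tested endothelial genes Nrp2 did, beside 1.39% of all genes. Cd274 passed in 7 of the 11 alternatives that kept all 4 mice. Nrp2 had 78.8% and 89.2% of its UMIs in the cluster led by Esrrg and did not pass with no replicate block (adjusted p = 0.23, edgeR). None of the 8 RNA quality genes passed (0), and they summed to 67760 and 62649 CPM at TN and to 54157 and 63049 CPM at 14D.

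The same contrast in young mice, 9 weeks old, set the aged values beside those of young TN and 14D mice, which shared no mouse with them. Of the 285 genes, 271 (95.1%) had the same sign in young mice, as had 68.2% of all genes tested. Ucp1 had 0 CPM in both young TN mice and 199 and 170 CPM in young 14D mice, against 51.7 and 53.3 CPM in aged 14D mice. Acot11 had 673 and 468 CPM in young 14D mice and Acly 871 and 2855 CPM, against 105 and 94.4 CPM and 97.0 and 270 CPM in aged ones. Acacb had 892 and 968 CPM in young TN and 3214 and 2797 CPM in young 14D mice, against 265 and 499 CPM and 3415 and 3205 CPM in aged ones. These levels were not tested between the ages.

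An interaction term tested whether the aged and young responses differ. With edgeR, 0 of 10326 genes passed, 931 had an unadjusted p under 0.05 and the smallest adjusted p was 0.0552, while 19 genes passed with DESeq2. The genes at that smallest adjusted p were Itpr2, Mapt, Cd59a and Atp8a1, named here after their values were seen. Itpr2, a calcium release channel, had 139 and 176 CPM at TN and 184 and 154 CPM at 14D in aged mice, with a log2 fold change of 0.10 against 2.50 in young mice. Atp8a1, a flippase of membrane phospholipids, had a log2 fold change of 0.30 in aged and 2.28 in young mice. Cd59a fell by 1.42 in aged mice and had a value of 0.70 in young mice. Pdgfd was next, with -1.86 in aged and 0.75 in young mice (adjusted p = 0.0706, edgeR). For Acot11, Gk, Acacb, Fasn and Npr3 the interaction did not pass, which does not show that the ages respond alike. Ucp1 was at 0 in the TN mice of both ages, so its interaction has no finite estimate and the test could not show a difference.

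In non-adipocyte nuclei, 0 of 9151 genes passed (0.0%) with edgeR, 634 had an unadjusted p under 0.05, and 1 (Igfbp5) passed with DESeq2. These were 611, 405, 472 and 1523 nuclei of aged TN 1, aged TN 2, aged 14D 1 and aged 14D 2, without the 4, 12, 9 and 12 nuclei of a muscle cluster, and since class shares differed between the mice, a change of shares and a change within a class cannot be told apart in their sum. The gene nearest to the threshold was Igfbp5, a binding protein of insulin-like growth factors, with 523 and 291 CPM at TN and 893 and 643 CPM at 14D (log2 fold change 0.94 ± 0.14, adjusted p = 0.0885, edgeR). On each of the 21 gene lists, 0 members passed. The DNL list had a median of 1.10 and the thermogenic list 0.45, beside 0.03 over all genes, and the adipocyte markers summed to 774 and 1614 CPM at TN and to 1645 and 1749 CPM at 14D in these nuclei. Their part in those medians was not tested. Ucp1 was at 0 in fibroblast and immune nuclei of all 4 mice, but not in endothelial nuclei.

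Within fibroblast nuclei, which include the adipocyte progenitors of the depot, 0 of 7815 genes passed (0.0%) with edgeR, 537 had an unadjusted p under 0.05, and Igfbp5 alone (1) passed with DESeq2. Igfbp5 had 680 and 433 CPM at TN and 1130 and 896 CPM at 14D, without overlap (log2 fold change 0.89 ± 0.16, adjusted p = 0.0623, edgeR). Vcan, the proteoglycan versican, had 269 and 237 CPM at TN and 123 and 114 CPM at 14D (log2 fold change -1.07 ± 0.20), and Notch3 28.3 and 26.8 against 86.5 and 88.2 CPM. Nrg1, a ligand of ErbB receptors, with 14.2 and 0 CPM at TN and 88.5 and 112 CPM at 14D, passed without aged TN 1. Of the 42 tested matrix genes in fibroblasts, 24 had positive values and the median was 0.10, whereas in adipocytes the median was -0.59. The difference between the classes was not tested.

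Immune nuclei gave 0 calls among 3787 genes (0.0%) with edgeR, 197 at an unadjusted p under 0.05 and 0 with DESeq2. The 21 tested macrophage genes had a median log2 fold change of 0.38. Endothelial nuclei gave 3 of 2169 genes (0.138%) that passed, Tspan13, Arhgef15 and Emcn, all higher at 14D. The class joined a cluster led by Flt1 (8 and 20 nuclei at TN, 33 and 92 at 14D) and one led by Pecam1 (17 and 18 at TN, 24 and 61 at 14D). Whether this mix bears on the calls was not tested. Emcn, the endothelial sialomucin endomucin, had 0 UMIs in the 25 and 38 endothelial nuclei of the TN mice and 530 and 581 CPM at 14D, at least 1.39-fold higher (adjusted p = 0.0373, edgeR). Tspan13 (245 and 436 CPM at 14D) and Arhgef15 (224 and 370 CPM at 14D) were also at 0 at TN, and their counts were too low for a bound above 1. In endothelial nuclei the 11 liver genes summed to 0 and 1364 CPM at TN and to 244 and 448 CPM at 14D, of which Stab2, with 53 UMIs in aged TN 2 and 67 in aged 14D 2, and Reln made up most, while 8 of the 11, among them Alb, Apoa1 and Apob, were at 0 in all 4 mice. Their part in the 3 calls was not tested. Endothelial nuclei of young TN mice had 529 and 377 CPM of Emcn, and 0 genes passed without any 1 of the 4 aged mice, without the pool term or with DESeq2.

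**Figure D5:**
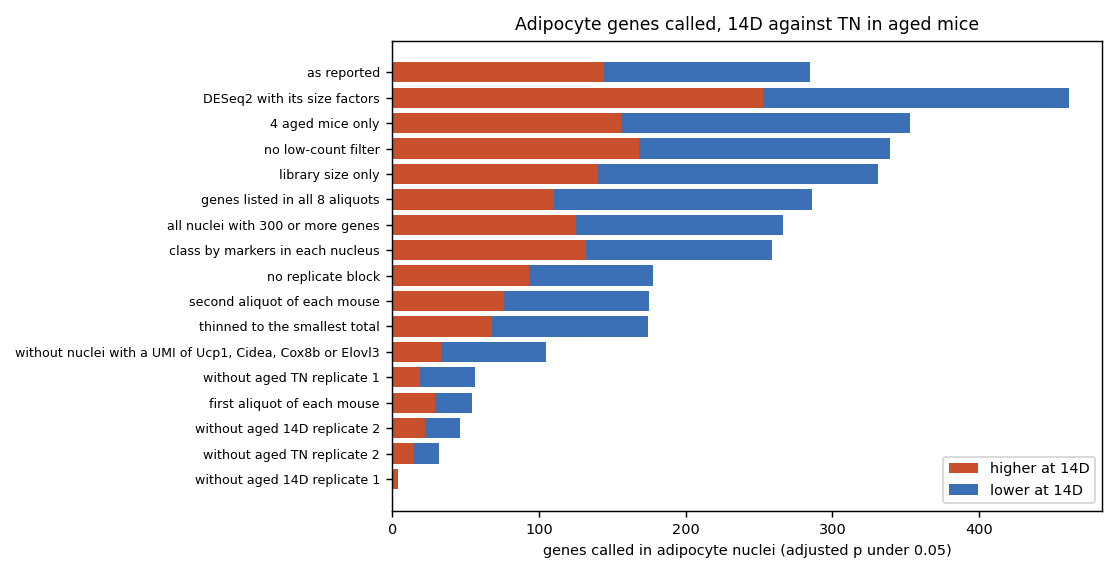
Number of genes called in adipocyte nuclei (aged 14D against aged TN, adjusted p under 0.05) under each processing choice, split by direction. The count is 285 as reported and ranges from 4 without aged 14D 1 to 461 with DESeq2.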

How the data were processed

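Single-nucleus RNA of iWAT was measured in 12 mice of 6 groups of age and temperature. Groups and replicates of the 24 aliquots came from the sample table deposited beside the matrices. The authors, as their methods and labels state, aligned reads with Cell Ranger to GRCm38 with intronic reads, removed ambient RNA with CellBender, left out genes with few counts and kept demuxEM singlets. The deposited values are counts of UMIs per gene and nucleus after these steps, not normalized. Genes listed in an aliquot had a total of 6 or more UMIs, so one that is missing from it can have held up to 5. Hashtag libraries were not used.

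Nuclei needed 300 or more genes and no more than 5% mitochondrial UMIs. Doublets were called per pool with a Scrublet-type score (expected rate 0.05; 495 nuclei, 3.25%) and removed, as were 64 nuclei with at least 2 of 11 liver genes. Pools were integrated in Seurat 5.3.0 (R 4.3.3; 2000 variable genes, 18 dimensions, resolution 0.4), and clusters took a class from at least 3 markers over 2-fold (prior 10 CPM). Summed UMIs of each class in each mouse entered edgeR 4.0.16 (quasi-likelihood F-test, TMM, filterByExpr) with group and pool as terms, and all 12 mice gave a common estimate of the spread. The SE is the log2 fold change over the square root of F, and CPM are TMM-scaled. Benjamini-Hochberg's threshold was 0.05. The replicate number is the pool in which mice were processed together, so it served as the block; deviations of same-numbered aged TN and 14D mice correlated at 0.125 in adipocyte and 0.151 in non-adipocyte nuclei. On simulated counts of adipocyte nuclei, 98% of genes changed 4-fold and 32% of those changed 2-fold were recovered, with 8 false calls. The changed genes were drawn only from those above the median level, and the simulation held no pool effect and no other group difference. It therefore does not show how many genes with few counts would be recovered. DESeq2 1.42.0 was an alternative. Lower bounds against a group at 0 used 3 UMIs over the group or, if more, 5 per unlisted aliquot. Genes with some UMIs at TN had no such bound. Among these, Acly, Cidea, Fads1, Irf4 and Rnf152 were unlisted in 2 TN aliquots and Acaa1b in 3, so their folds may be too high. Python 3.11.15, numpy 2.4.6, pandas 2.3.3 and SciPy 1.17.1 were used.

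Genes named were the 12 rising and 12 falling genes with the smallest adjusted p that moved the same way in both pools, without predicted genes and other classes' markers, up to 4 members per list and direction, and 7 set genes (Ucp1, Gk, Acly, Fasn, Npr3, Ppargc1a, Arntl). Further list members, such as Cidea, Prdm16 and Adrb3, were named after their values were seen. The members, the 21 lists and the markers were chosen with earlier results of these data known. Some items are not reported here.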

Additional observations from a re-analysis of the deposited data

Results flagged for a closer look

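In aged 14D 2, 24 nuclei (1.17% of 2056, exact binomial 95% interval 0.749 to 1.73%) held at least 2 of 11 liver genes, whereas the other 3 aged TN and 14D mice had 0, which allows shares of up to 0.250%, 0.374% and 0.251%. Over all 12 mice, 64 such nuclei were found, all in mice of pool 2: beside aged 14D 2 these were young TN 2 (15 of 670 nuclei), young 3D 2 (12 of 1289), aged 3D 2 (8 of 1379) and young 14D 2 (5 of 1422). Aged TN 2, of the same pool, and the 6 mice of pool 1 had 0. These nuclei entered no comparison. What drew attention to them was a signal of another organ in nuclei labelled as fat. With all nuclei of at least 300 genes kept, liver-marked nuclei and doublets included, 266 genes passed in adipocyte nuclei, and 235 of the 285 genes were among them. How these nuclei came to be in the sample was not tested.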

How the results depend on the processing

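In adipocyte nuclei the 285 calls became 461 with DESeq2, 54 with the first and 175 with the second aliquot of each mouse, 178 with no replicate block, 174 with sums thinned to 1 total, 105 without nuclei with a UMI of Ucp1, Cidea, Cox8b or Elovl3, and 4 to 56 without 1 mouse. Counts with the 4 aged mice only (353), library size scaling (331), no low-count filter (339), genes listed in all 8 aliquots (286), all nuclei (266) and classes by markers per nucleus (259) were within 1.5 times. Library size scaling moved the median of all genes from 0.07 to -0.01. Of the 285 genes, those tested kept their direction in every alternative run except Nrp2, at -0.027 without the beige-marked nuclei (275 of 276 kept it). Over the 54 named adipocyte genes that passed, 613 of 847 alternatives kept the call, 233 lost it and 1 (Nrp2) reversed. The 4 named genes that did not pass (Acly, Arntl, Fasn and Ppargc1a) stayed without a call in 59 of 60, and Fasn gained one in the other. The interaction with age gave 19 genes with DESeq2, 22 with all nuclei, 5 with no low-count filter, 4 with classes by markers, 4 with genes listed in all 8 aliquots and 3 with no replicate block (Mapt, Atp8a1 and Itpr2). Non-adipocyte calls were 13 with no filter, 1 with DESeq2 (Igfbp5), 1 with genes listed in all 8 aliquots (Igfbp5) and 1 with the second aliquots, and its interaction 0 to 1 without 1 mouse (Prkg2, without aged TN 1). Fibroblasts gave 44 with no filter, 1 with DESeq2 and 0 to 1 without 1 mouse, and immune nuclei 19 with no filter. Endothelial calls were 13 with no filter and 0 with DESeq2, no replicate block or without 1 mouse (0 to 0). The difference in the adipocyte share of nuclei ran from -24.9 to 10.8 points without 1 mouse, and was 10.8 without aged 14D 2. Apart from these, the block changed no zero count. The causes were not tested. Thinned or aliquot fits hold fewer UMIs, and fits without 1 mouse leave a group with 1 sample that is assumed to vary like the others. Up to 20 UMIs of a gene unlisted in the TN mice could be missing, so of 33 called genes at 0 at TN, 19 were bounded above 1-fold. The alternatives of the interactions, and the unnamed cluster left out, were chosen after seeing the data.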
